A study of Mus musculus with 10 samples.

Results

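The cytosine methylation machinery was followed through H3K4me3 at the promoters of 9 genes, *Dnmt1*, *Uhrf1*, *Dnmt3a*, *Dnmt3b*, *Dnmt3l*, *Tet1*, *Tet2*, *Tet3* and *Tdg*, out of 21755 protein-coding genes on chromosomes 1 to 19 and X. The genes were chosen by name, for their role in writing, keeping, oxidizing or excising methylated cytosine. A gene was counted as marked in a library if at least 1 bp of a peak fell between 1000 bp before and 100 bp after any of its annotated starts, and overlapping windows of a gene were merged into 1 promoter. The 9 genes had 43 such promoters, of which 18 were marked in at least 1 library, 7 in all 10 libraries and 25 in no library.

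The libraries are H3K4me3 CUT&Tag of naive extra-embryonic endoderm (nEnd), a culture of primitive endoderm obtained by differentiating mouse embryonic stem cells, sorting them on PDGFRA and expanding them on feeder cells in RPMI with Activin A, CHIR99021 and LIF. All cells carried the OCT4-mCherry reporter, came from 1 reporter line and were given no treatment. They were sorted into Oct4+ nEnd (OCT4-mCherry without PDGFRA, 4 libraries), DP nEnd (positive for both, 3 libraries) and Pdgfra+ nEnd (PDGFRA without OCT4-mCherry, 3 libraries). The comparison asks how the promoters of these genes differ between the de-differentiated, pluripotent Oct4+ cells and the endodermal DP and Pdgfra+ cells. In CUT&Tag an antibody directs a transposase to a chromatin mark, and the tagged DNA is sequenced.

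In mammals DNMT1 copies methylation onto newly replicated DNA, where UHRF1 recruits it to hemimethylated sites, and DNMT3A and DNMT3B add methylation to unmethylated DNA with DNMT3L as a cofactor that has no catalytic activity. The TET dioxygenases oxidize methylated cytosine, and TDG excises the further oxidized bases so that repair restores cytosine. Naive pluripotent cells are known for low global methylation and for high *Tet1* and *Tet2*, and H3K4me3 is found at promoters of active genes and at CpG-rich promoters, where it hinders the DNMT3 enzymes.

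The libraries held 3477 to 9144 peaks in Oct4+, 7575 to 8836 in DP and 6510 to 10545 in Pdgfra+ nEnd. Each peak carried its total signal, the coverage summed over the peak, which was not scaled between libraries, so each peak was given its percentile by total signal among the peaks of its own library, and a gene took the highest percentile of its promoter peaks, or 0 without one. The highest coverage of a peak had a median of 22 to 59 per library for Oct4+, 107 to 144 for DP and 67 to 143 for Pdgfra+ nEnd, so it moved with the populations, and its part in the results was not tested. Read depth is unknown. The labels were checked against the presence of peaks at marker genes, as a description, and *Pou5f1* and *Pdgfra* among them encode the proteins behind the sort. All 6 epiblast markers were marked in the 4 Oct4+ nEnd libraries, and of 8 primitive endoderm markers 0 to 4 were marked in each Oct4+ nEnd library and 7 to 8 in each DP and Pdgfra+ nEnd library. In DP nEnd 5 to 6 of the epiblast markers were marked and in Pdgfra+ nEnd 0 to 1. Of 12 feeder fibroblast markers 11 were marked in no library, and *Twist1* was marked in 5 libraries. Of 6 trophectoderm markers none was marked in Oct4+ nEnd and 3 to 4 were marked in each DP and Pdgfra+ nEnd library. *Gata3*, *Krt8* and *Krt18* were marked in all of these, *Cdx2* in 2 of 3 libraries of each population, and *Elf5* and *Hand1* in no library.

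Promoters of *Tet1*, *Tet2*, *Tet3*, *Dnmt3a* and *Dnmt3l* are shown first, from the 250 bases before a RefSeq start (GRCm38.p6). They are written in the direction of transcription with each CG dinucleotide in capitals. All 9 genes were matched, with 16 RefSeq promoters. The *Tet1* stretch (chr10:62887325-62887412, minus strand) is the part of its promoter that no annotated UTR overlaps and lies just before the start that was marked in every library. The *Tet2* promoter (chr3:133544391-133544640, minus strand) is the most CpG-rich of the 16. The *Tet3* promoter (chr6:83441679-83441928, minus strand) and the internal *Dnmt3a* promoter (chr12:3891494-3891727, plus strand) are shown because their peaks came and went between libraries. The upstream *Tet3* start at 83456392, whose peak gave the *Tet3* percentile and width results, is not a RefSeq start and is not shown. The *Dnmt3l* promoter (chr10:78049592-78049841, plus strand) is its only one with a peak, in 1 library.
Tet1: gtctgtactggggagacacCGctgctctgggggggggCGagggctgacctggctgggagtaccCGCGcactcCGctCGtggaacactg
Tet2: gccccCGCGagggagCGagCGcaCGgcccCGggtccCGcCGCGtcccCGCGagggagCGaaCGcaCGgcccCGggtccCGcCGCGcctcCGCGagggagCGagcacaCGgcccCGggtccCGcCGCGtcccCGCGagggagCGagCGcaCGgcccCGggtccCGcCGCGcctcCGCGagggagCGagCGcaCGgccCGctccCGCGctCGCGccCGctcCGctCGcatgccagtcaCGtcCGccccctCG
Tet3: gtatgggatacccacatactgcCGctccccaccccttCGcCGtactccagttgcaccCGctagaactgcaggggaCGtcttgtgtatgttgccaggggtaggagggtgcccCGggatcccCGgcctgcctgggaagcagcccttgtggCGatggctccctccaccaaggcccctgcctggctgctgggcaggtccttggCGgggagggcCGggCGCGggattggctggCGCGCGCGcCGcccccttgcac
Dnmt3a: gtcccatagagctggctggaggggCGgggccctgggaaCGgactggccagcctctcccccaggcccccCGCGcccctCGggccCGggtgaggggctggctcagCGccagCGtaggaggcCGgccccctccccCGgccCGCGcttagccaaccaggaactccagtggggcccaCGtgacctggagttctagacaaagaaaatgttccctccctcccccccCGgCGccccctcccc
Dnmt3l: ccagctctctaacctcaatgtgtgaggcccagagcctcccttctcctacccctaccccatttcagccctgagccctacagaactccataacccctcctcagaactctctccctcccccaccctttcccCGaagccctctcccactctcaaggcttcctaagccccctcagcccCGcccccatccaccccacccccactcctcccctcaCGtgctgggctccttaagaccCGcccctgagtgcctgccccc
CG reads the same on both strands, and 92.2% of the 32619 RefSeq promoters of chromosomes 1 to 19 and X hold at least 1 in these 250 bases, with a median of 6. The *Tet2* promoter held 51, above nearly all promoters (percentile 99.9), the 2 neighbouring upstream *Dnmt3a* starts held 38 and 40, the *Tet3* RefSeq start held 17 and the *Tet1* and internal *Dnmt3a* starts held 15 each. The 3 *Dnmt3l* starts held 5, 4 and 3. Among all promoters with 0 to 4 CG, 94.0% had no peak over these bases in any library and 0.445% had one in all 10, while among those with 20 or more 11.0% had none and 37.7% had one in all 10. No RefSeq promoter of the 9 genes with fewer than 7 CG was marked in more than 1 library.

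**Figure D1:**
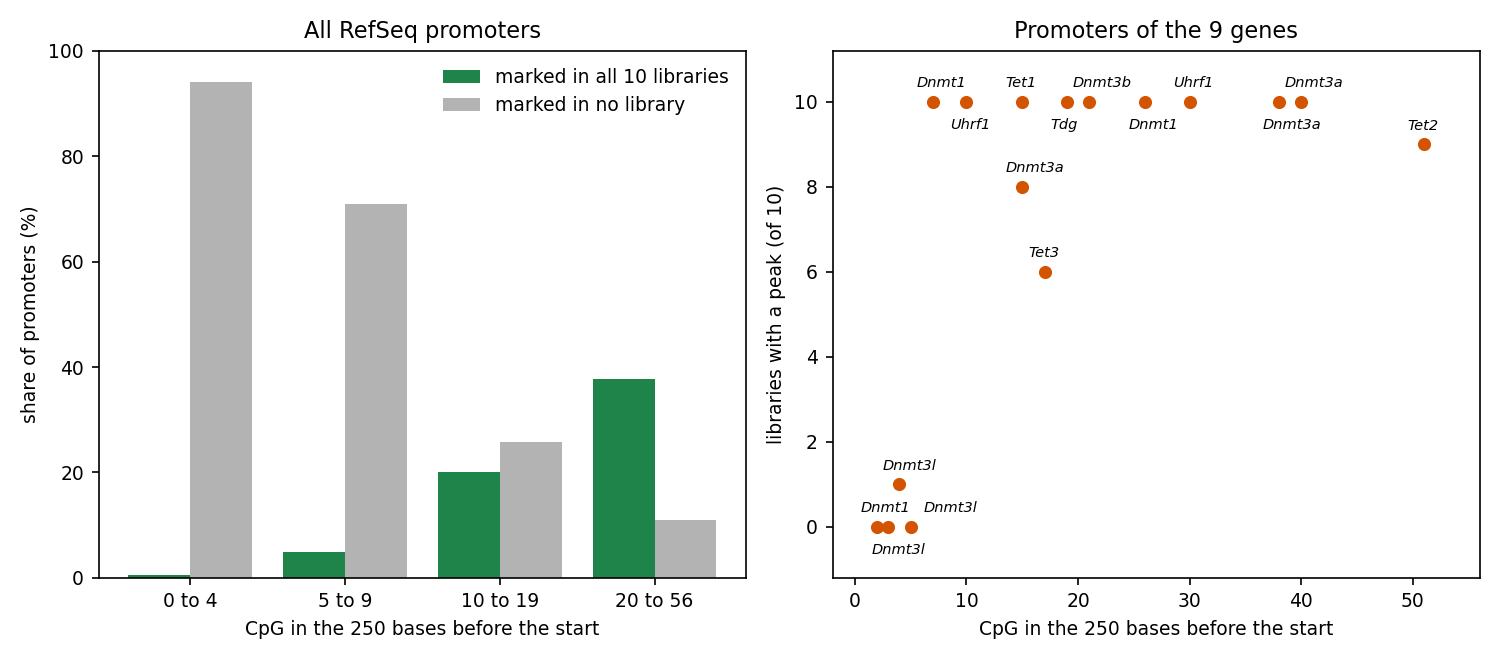
CpG content and H3K4me3. The left panel gives the share of all RefSeq promoters with a peak over the 250 bases before the start in all 10 libraries (green) or in none (grey), by the number of CG dinucleotides. The right panel plots each RefSeq promoter of the 9 genes by its CG count against the number of libraries with a peak over it, with *Dnmt3l* and the upstream *Dnmt1* start at the lower left and *Tet2*, with 51, at the far right.

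By percentile among all peaks of a library, the TET genes differed between Oct4+ and Pdgfra+ nEnd and the methyltransferase genes did not pass the test. *Tet1* and *Tet2* ranked higher in Oct4+ nEnd and *Tet3* ranked lower, while *Dnmt1*, *Uhrf1*, *Dnmt3a*, *Dnmt3b* and *Tdg* gave adjusted p-values above 0.05 in each pair of populations. The test was limma over the 9864 genes marked in at least 3 libraries, which 8 of the 9 genes were, *Dnmt3l* being the exception. Of all genes tested, 4.37% ranked higher and 14.0% lower in Oct4+ than in Pdgfra+ nEnd (431 and 1383 genes), against 2 and 1 of the 9 genes. Against DP nEnd, 1.74% of all genes ranked higher and 8.23% lower in Oct4+ nEnd (172 and 812 genes), against 0 and 1 of the 9, the 1 being *Tet3*. Between DP and Pdgfra+ nEnd 0.101% of all genes ranked higher in DP nEnd (10 genes) and 0% lower, and 0 of the 9 genes passed, with 1, *Tet1*, at an unadjusted p under 0.05 in limma, as were 2.90% of all genes. The median difference between Oct4+ and Pdgfra+ nEnd was −10.4 percentile points over all genes tested and 8.11 over the 8 genes. Against DP nEnd it was −10.4 over all genes and −0.19 over the 8. These medians count a missing peak as 0. Over the 3616 genes marked in all 10 libraries, as 7 of the 9 genes were, the median was −4.47 against Pdgfra+ and −6.89 against DP nEnd. The median over all genes moved with single libraries, to −4.87 against Pdgfra+ nEnd without Pdgfra+ nEnd replicate 1, to −5.99 against Pdgfra+ and −5.47 against DP nEnd without Oct4+ nEnd replicate 3, and to −15.7 against DP nEnd without Oct4+ nEnd replicate 1. The split between higher and lower calls moved with the setting. With the 3477 peaks of highest total signal kept in every library, 5231 genes were tested, the median over all genes was −1.49 against Pdgfra+ and −2.41 against DP nEnd, and the genes higher and lower in Oct4+ nEnd were 1211 and 1466 against Pdgfra+ nEnd, 840 and 1194 against DP nEnd, and 81 higher and 69 lower in DP than in Pdgfra+ nEnd. Together 51.2% of the genes tested passed against Pdgfra+ nEnd and 38.9% against DP nEnd. Of the 9 genes 6 then passed against Pdgfra+ nEnd, *Dnmt1*, *Uhrf1* and *Dnmt3b* (all higher in Oct4+ nEnd) beside the TET genes, and 5 against DP nEnd, *Dnmt1* and *Uhrf1* beside the TET genes. With ranks taken among all protein-coding genes, the genes higher and lower in Oct4+ nEnd were 1189 and 1650 against Pdgfra+ nEnd (median −3.25 points) and 655 and 1282 against DP nEnd (median −4.85 points). Over the genes marked in all 10 libraries they were 186 and 229 against Pdgfra+ nEnd, and without Pdgfra+ nEnd replicate 1 they were 524 and 699. The split moved the other way without Oct4+ nEnd replicate 1, to 378 and 2423 against Pdgfra+ nEnd and 167 and 1858 against DP nEnd.

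**Figure D2:**
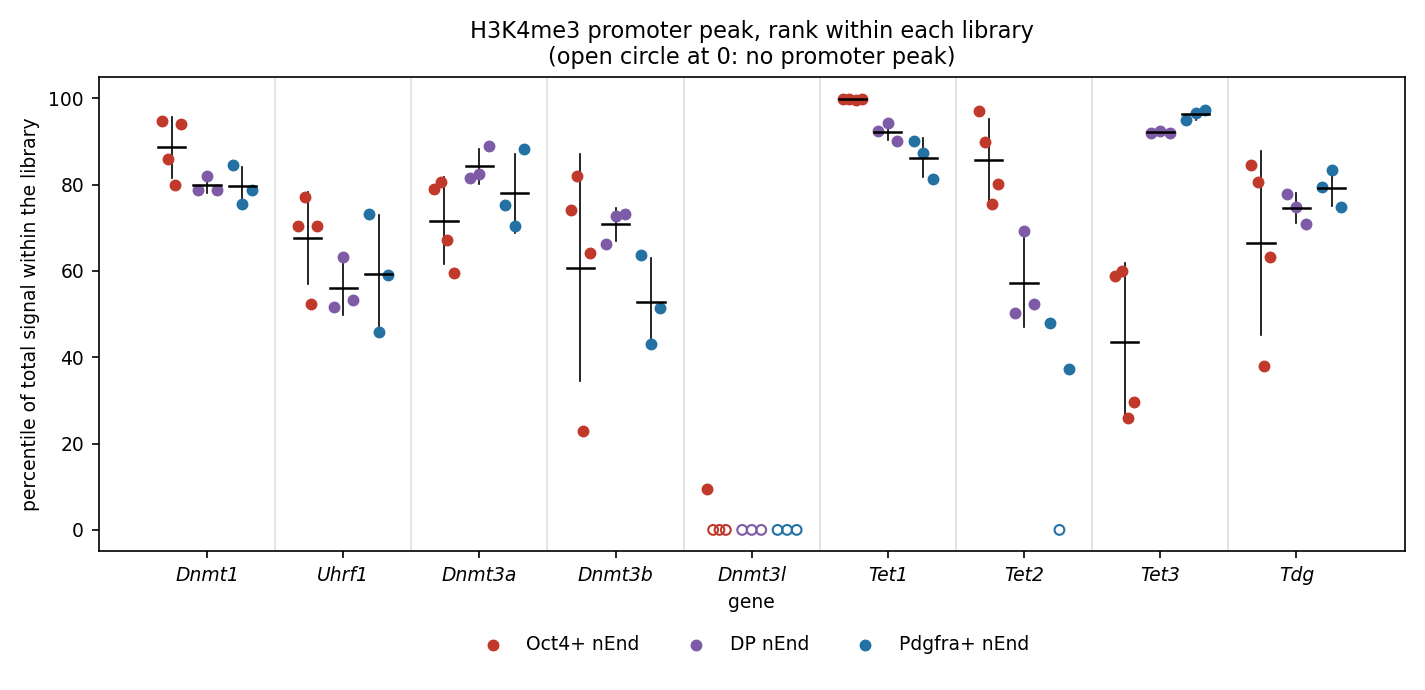
Percentile of the promoter peak by total signal within its own library, for each gene and library (filled circles; open circles at 0, no promoter peak). Bars give the mean and vertical lines the SD where every library of a population was marked. The Oct4+ nEnd libraries lie above the Pdgfra+ nEnd libraries for *Tet1* and *Tet2* and below them for *Tet3*, and both populations overlap for *Dnmt1*, *Uhrf1*, *Dnmt3a*, *Dnmt3b* and *Tdg*.

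*Dnmt1* (chr9:20907209-20959888, minus strand) encodes the maintenance methyltransferase. Its percentiles were 94.8, 86.0, 79.8 and 94.0 in Oct4+ nEnd replicates 1 to 4, 78.7, 82.0 and 78.9 in DP nEnd and 84.5, 75.5 and 78.9 in Pdgfra+ nEnd. The groups overlapped, and the difference of 9.05 ± 4.52 points (SE) between Oct4+ and Pdgfra+ nEnd did not pass (limma, adjusted p = 0.168). Its peak was widest in Oct4+ nEnd replicates 1 and 4, at 11205 and 8289 bp, and 4002 and 3393 bp in replicates 2 and 3, beside 3414 to 5372 bp in DP nEnd and 2342 to 4673 bp in Pdgfra+ nEnd. With equal numbers of peaks *Dnmt1* ranked higher in Oct4+ nEnd by 28.1 points against Pdgfra+ nEnd (adjusted p = 0.00210) and by 28.5 against DP nEnd (adjusted p = 0.00260), and with ranks among all genes by 5.68 and 6.13 points (adjusted p = 0.00349 and 0.00350). The annotated start farthest upstream, with 2 CG in its RefSeq promoter, was marked in no library.

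*Uhrf1* (chr17:56303321-56323486, plus strand), the partner of DNMT1, was marked in all 10 libraries. Its percentiles were 70.5, 77.1, 52.3 and 70.4 in Oct4+, 51.6, 63.2 and 53.3 in DP and 73.1, 45.9 and 59.0 in Pdgfra+ nEnd. The populations overlapped in each pair (adjusted p = 0.593 for Oct4+ against Pdgfra+ nEnd). With equal numbers of peaks it too ranked higher in Oct4+ nEnd, by 36.1 points against Pdgfra+ nEnd (adjusted p = 0.00533) and 42.8 against DP nEnd (adjusted p = 0.00277), so for *Dnmt1* and *Uhrf1* the call depended on how ranks were taken.

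*Dnmt3a* (chr12:3806007-3914443, plus strand) encodes a de novo methyltransferase and is known to have an upstream promoter for the long isoform and an internal one for DNMT3A2, the short isoform of embryonic stem cells. The upstream promoter was marked in all 10 libraries, with percentiles of 73.6, 80.7, 67.3 and 59.5 in Oct4+, 81.4, 82.5 and 88.8 in DP and 75.4, 70.3 and 88.2 in Pdgfra+ nEnd. The Oct4+ nEnd libraries lay below the DP nEnd libraries without overlap, and the difference of −14.0 ± 6.42 points (SE) did not pass (limma over promoters, adjusted p = 0.182). The internal start, 84.8 kb downstream, had no peak in Oct4+ nEnd replicate 3 and Pdgfra+ nEnd replicate 2. Where it had one, its percentile was 79.1, 65.2 and 2.04 in Oct4+ nEnd replicates 1, 2 and 4, 28.5, 35.7 and 13.1 in DP nEnd, and 22.1 and 18.3 in Pdgfra+ nEnd replicates 1 and 3. The Oct4+ nEnd libraries thus ranged from above to below every other library, and the difference from Pdgfra+ nEnd, 23.1 ± 18.6 points (SE), did not pass (adjusted p = 0.395).

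*Dnmt3b* (chr2:153649450-153687730, plus strand), the other catalytic de novo enzyme, was marked in all 10 libraries at 1 promoter, whose peak also overlapped the promoter window of the antisense gene *Dnmt3bos* in every library. Its percentiles were 74.0, 81.9, 22.8 and 64.1 in Oct4+, 66.3, 72.7 and 73.3 in DP and 63.7, 43.1 and 51.4 in Pdgfra+ nEnd. All DP nEnd libraries lay above all Pdgfra+ nEnd libraries, by 18.1 ± 14.4 points (SE), a difference that did not pass (adjusted p = 1). Oct4+ nEnd overlapped both populations. Its peaks were 5364, 7058 and 5850 bp wide in DP nEnd and 4982, 2012 and 3395 bp in Pdgfra+ nEnd. With equal numbers of peaks *Dnmt3b* ranked 40.5 points higher in Oct4+ than in Pdgfra+ nEnd (adjusted p = 0.00331), and with ranks among all genes 9.47 points higher (adjusted p = 0.0120).

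*Dnmt3l* (chr10:78041947-78063622, plus strand), the cofactor without catalytic activity, was marked in 1 of 10 libraries. The peak, in Oct4+ nEnd replicate 1, was 3041 bp wide at percentile 9.39, and no consensus list held a peak at any of its starts.

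*Tdg* (chr10:82629828-82650799, plus strand), the glycosylase that acts after the TET enzymes, was marked in all 10 libraries. Its percentiles were 84.6, 80.7, 37.9 and 63.1 in Oct4+, 77.8, 74.9 and 70.9 in DP and 79.3, 83.4 and 74.9 in Pdgfra+ nEnd. Oct4+ nEnd replicates 3 and 4 lay below every other library and replicate 1 above every other, and no pair passed (adjusted p = 0.375 for Oct4+ against Pdgfra+ nEnd). The direction depended on the ranking: the difference from Pdgfra+ nEnd was −12.6 points by total signal, 0.147 with equal numbers of peaks and −3.08 by total signal without Oct4+ nEnd replicate 3.

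*Tet1* (chr10:62804570-62908996, minus strand), the TET enzyme best known from embryonic stem cells, had one of the strongest promoter peaks of Oct4+ nEnd. By total signal its peak ranked 8 of 9144, 9 of 8098, 13 of 3477 and 5 of 4887 in Oct4+ nEnd replicates 1 to 4, a percentile of 99.9, 99.9, 99.6 and 99.9. The percentile was 92.5, 94.2 and 90.1 in DP nEnd and 90.0, 87.4 and 81.2 in Pdgfra+ nEnd. The order Oct4+, DP, Pdgfra+ nEnd held without overlap between libraries. The means were 99.8 ± 0.134 (SD, n = 4), 92.3 ± 2.02 (SD, n = 3) and 86.2 ± 4.50 (SD, n = 3). Oct4+ nEnd was higher than Pdgfra+ nEnd by 13.6 ± 2.34 points (SE, limma adjusted p = 0.00197). The difference from DP nEnd, 7.56 ± 2.34 points, gave a limma adjusted p of 0.0592, and 0.0331 to 0.203 when each library was left out in turn. It passed only without any 1 Pdgfra+ nEnd library (0.0331 to 0.0476), whose spread enters the fit. The difference between DP and Pdgfra+ nEnd, 6.06 ± 2.50 points, gave an adjusted p of 1.

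The *Tet1* peak differed above all in width. It spanned 30753, 19337, 10183 and 30490 bp in Oct4+, 9470, 16527 and 6555 bp in DP and 5155, 2132 and 4055 bp in Pdgfra+ nEnd. By width it ranked 6 of 9144, 5 of 8098, 32 of 3477 and 1 of 4887 peaks in Oct4+ nEnd, and in Pdgfra+ nEnd it lay at width percentiles of 80.0, 45.8 and 81.5. All Oct4+ nEnd values lay above all Pdgfra+ nEnd values, and DP nEnd replicate 2 fell within the Oct4+ nEnd range. With log2 widths centred on the library median over the 3616 genes marked in all 10 libraries, the Oct4+ nEnd peak was 4.81-fold wider than that of Pdgfra+ nEnd (log2 difference 2.27 ± 0.33 SE, limma adjusted p = 0.000772). Among all genes tested 5.89% were wider in Oct4+ than in Pdgfra+ nEnd and 2.90% were narrower (213 and 105), against 1 (*Tet1*) and 1 (*Tet3*) of the 9 genes, 7 of which were tested. Without centring 114 genes were wider and 1 narrower. The widest promoter peak of a gene was used, which was the peak of highest total signal except for *Dnmt3a* in Oct4+ nEnd replicate 2 and DP nEnd replicates 1 and 2. The 2.31-fold difference from DP nEnd did not pass (adjusted p = 0.112), and without Oct4+ nEnd replicate 3, the library with the fewest peaks, its log2 value was 1.48 (adjusted p = 0.0463). When each library was left out in turn the limma adjusted p ran from 0.0463 to 0.287, and only the fit without that library passed. Against DP nEnd 0.138% of genes were wider and 0.0830% narrower in Oct4+ nEnd, and 0.332% were wider and 0% narrower in DP than in Pdgfra+ nEnd. Of the 9 genes 0 passed in either pair, with 4 and 2 at an unadjusted p under 0.05 in limma, beside 15.0% and 8.77% of all genes.

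The height of the *Tet1* peak did not separate Oct4+ nEnd from Pdgfra+ nEnd. Its percentile by highest coverage was 96.9, 96.5, 99.3 and 98.8 in Oct4+, 96.9, 96.3 and 94.7 in DP and 97.5, 94.4 and 89.6 in Pdgfra+ nEnd. By mean coverage over the peak it was 54.7, 69.1, 93.8 and 57.4 in Oct4+, 46.6, 21.5 and 66.0 in DP and 87.9, 95.2 and 72.9 in Pdgfra+ nEnd, where all DP nEnd libraries lay below all Pdgfra+ nEnd libraries and Oct4+ nEnd overlapped both. The adjusted p for Oct4+ against Pdgfra+ nEnd was therefore 0.401 by highest coverage and 0.517 by mean coverage, where the difference turned to −16.6 points. Where a peak had to cover 50% of a window the difference was 42.8 ± 15.5 points (SE, limma adjusted p = 0.0783), and without the variance trend it was 13.6 ± 4.32 points (adjusted p = 0.0611).

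The *Tet1* peaks of Oct4+ nEnd reached 20348, 13392, 6229 and 22028 bp upstream of the RefSeq start, those of DP nEnd 2532, 12059 and 1607 bp and those of Pdgfra+ nEnd 835, 405 and 1387 bp. They thus took in further annotated starts, as a consequence of the reach just given. The next start upstream (at 62892986 on chromosome 10) was covered in 4 of 4 libraries of Oct4+, 1 of 3 of DP and 0 of 3 of Pdgfra+ nEnd, and the one after it (at 62899118) in 3, 1 and 0. Of the other starts marked in any library, that at 62880014 had a peak in its promoter window in 2 Oct4+ nEnd libraries and 1 DP nEnd library, and those at 62908996 and 62865304 in 1 Oct4+ nEnd library each. Of the 14843 promoters marked in at least 1 library, 1.09% were marked in every Oct4+ and no Pdgfra+ nEnd library. In 5 libraries, the 4 of Oct4+ nEnd and DP nEnd replicate 2, the peak also overlapped the promoter window of the small nuclear RNA gene *Gm26479*. The consensus peak measured 32433 bp in Oct4+ nEnd (chr10:62876920-62909352), 18997 bp in DP nEnd and 5707 bp in Pdgfra+ nEnd.

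**Figure D3:**
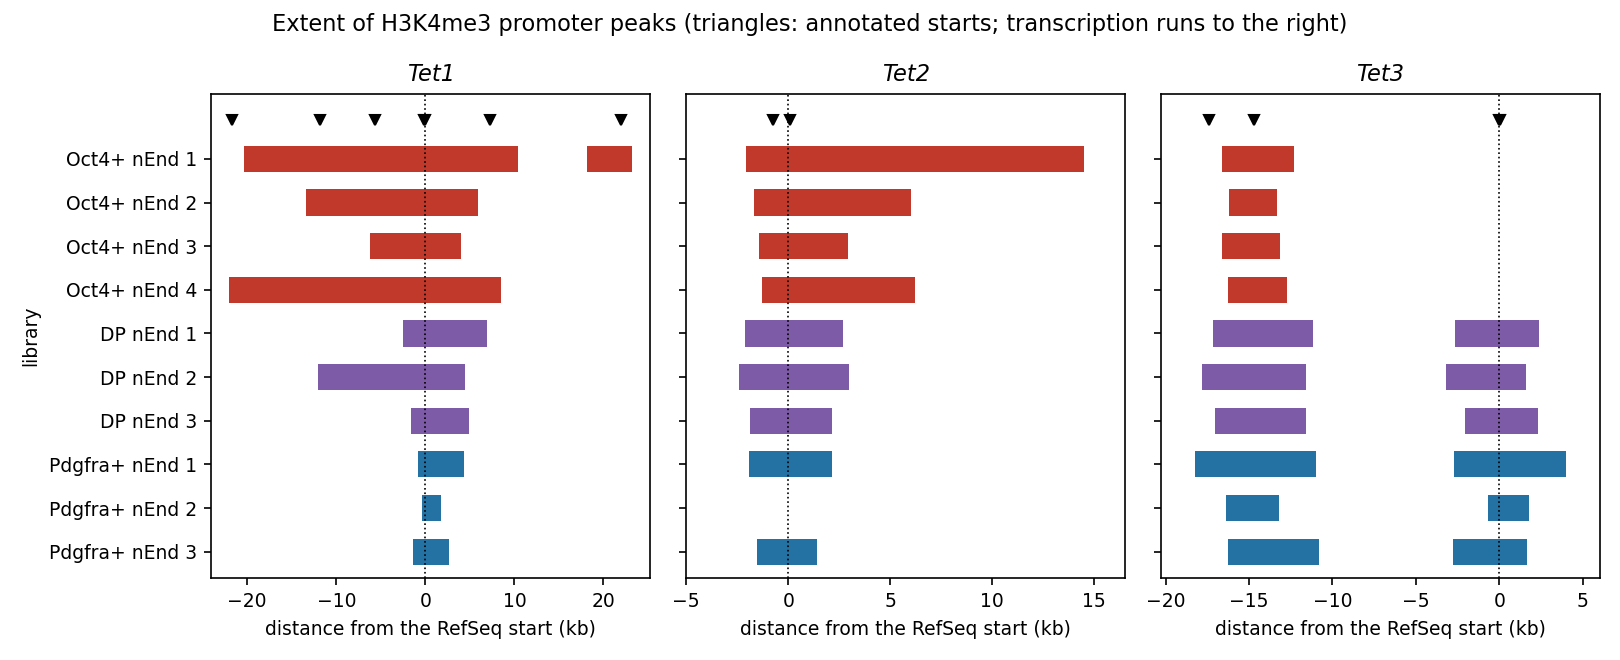
Extent of the promoter peaks of *Tet1*, *Tet2* and *Tet3* in each library, as distance in kb from the RefSeq start (dotted line, transcription to the right). Triangles mark annotated starts in view. *Tet1* peaks reach 6229 to 22028 bp upstream in Oct4+ nEnd and 405 to 1387 bp in Pdgfra+ nEnd, *Tet2* peaks extend downstream in Oct4+ nEnd, and the *Tet3* RefSeq start carries a peak only in the DP and Pdgfra+ nEnd libraries.

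*Tet2* (chr3:133463679-133545139, minus strand), which acts beside *Tet1* in embryonic stem cells, showed the same order of populations at its upstream promoter, and its other 5 promoters were marked in no library. Its percentile was 97.1, 89.8, 75.6 and 80.1 in Oct4+ nEnd and 50.2, 69.2 and 52.4 in DP nEnd. In Pdgfra+ nEnd it was 48.0 and 37.3 in replicates 1 and 3, and replicate 2 had no peak. The populations did not overlap. The means, with the missing peak as 0, were 85.7 ± 9.66 (SD, n = 4), 57.3 ± 10.4 (SD, n = 3) and 28.4 ± 25.2 (SD, n = 3), and Oct4+ nEnd was higher than Pdgfra+ nEnd by 57.2 ± 12.7 points (SE, limma adjusted p = 0.00889). The difference from DP nEnd was 28.4 ± 12.7 points (adjusted p = 0.160), and it passed with equal numbers of peaks, at 71.9 points (adjusted p = 3.8e-05). Between DP and Pdgfra+ nEnd it was 28.8 ± 13.5 points (adjusted p = 1). By highest coverage the difference between Oct4+ and Pdgfra+ nEnd fell short of the threshold (37.6 points, adjusted p = 0.0767), as by mean coverage (22.2 points, adjusted p = 0.439).

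The *Tet2* peak spanned 16596, 7699, 4351 and 7500 bp in Oct4+, 4831, 5433 and 4030 bp in DP, and 4072 and 2922 bp in Pdgfra+ nEnd. Oct4+ nEnd replicate 3 fell among the DP nEnd libraries, and the other Oct4+ nEnd libraries lay above both populations. Width was not tested over the 10 libraries, since Pdgfra+ nEnd replicate 2 had no peak. Without that library the Oct4+ nEnd peak was 2.23-fold wider than that of Pdgfra+ nEnd (log2 difference 1.16 ± 0.29 SE, limma adjusted p = 0.0333). The *Tet2* peak extended into the gene, reaching 14506, 6021, 2930 and 6221 bp downstream of the RefSeq start in Oct4+ nEnd against 1388 to 3002 bp in the DP and Pdgfra+ nEnd libraries with a peak, whereas the upstream reach was 1278 to 2089 bp in Oct4+ nEnd and 1533 to 2430 bp in those. Oct4+ nEnd replicate 3 fell within the downstream range of the DP nEnd libraries. The peak also overlapped the promoter window of the antisense gene *Gm42567* in all 9 libraries that had it. The consensus peak measured 17008 bp in Oct4+, 5433 bp in DP and 4072 bp in Pdgfra+ nEnd.

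**Figure D4:**
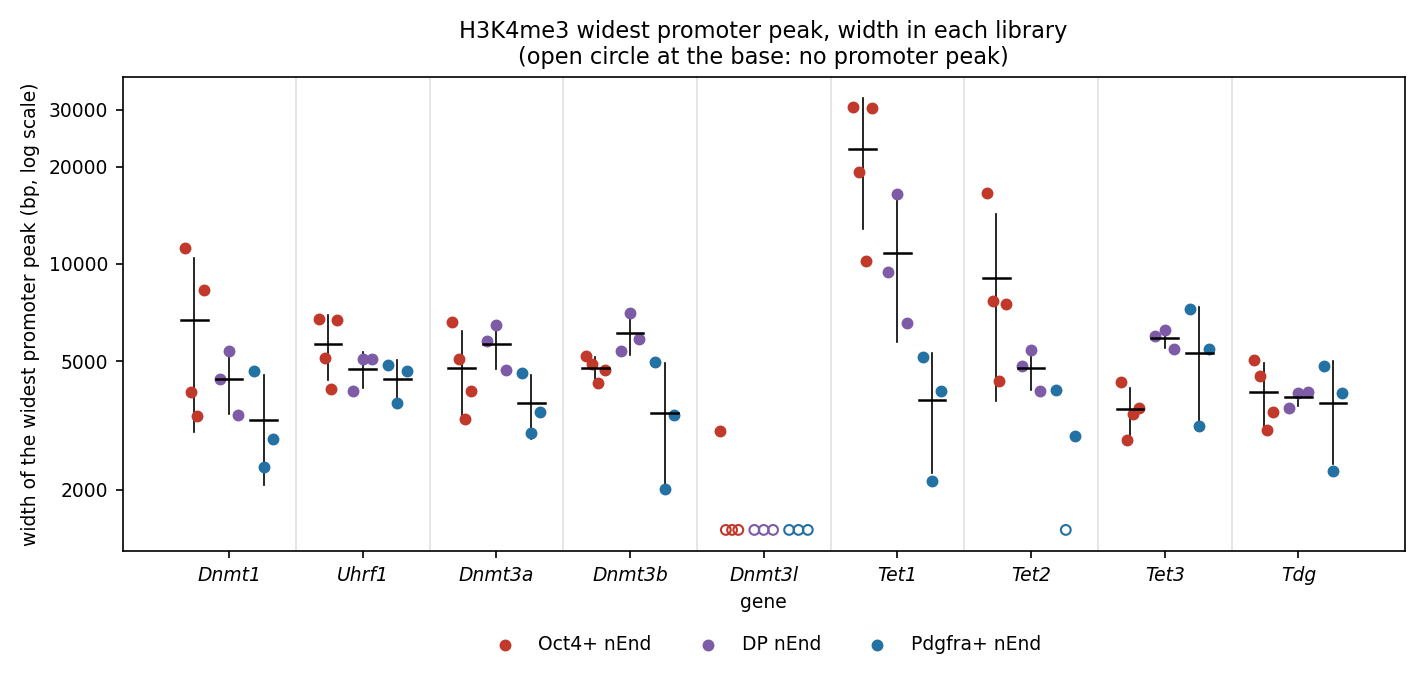
Width of the widest promoter peak, in bp on a log scale, for each gene and library (open circles at the base, no promoter peak). Bars give the mean and vertical lines the SD where every library of a population was marked. *Tet1* spans 10183 to 30753 bp in Oct4+ nEnd and 2132 to 5155 bp in Pdgfra+ nEnd.

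*Tet3* (chr6:83362373-83459084, minus strand), the TET enzyme of the oocyte and zygote, went the other way, and at a pair of promoters. The upstream one (start at 83456392) was marked in all 10 libraries. Its percentile was 58.9, 59.9, 25.8 and 29.6 in Oct4+, 91.9, 92.4 and 92.0 in DP and 94.9, 96.7 and 97.3 in Pdgfra+ nEnd. The means were 43.5 ± 18.4 (SD, n = 4), 92.1 ± 0.282 (SD, n = 3) and 96.3 ± 1.27 (SD, n = 3). Oct4+ nEnd lay below both other populations without overlap, by 52.7 points against Pdgfra+ nEnd (fitted difference −52.7 ± 8.76 SE, limma adjusted p = 0.00162) and by 48.6 against DP nEnd (−48.6 ± 8.76, adjusted p = 0.00458). DP and Pdgfra+ nEnd differed by −4.19 ± 9.37 points (adjusted p = 1). By highest coverage *Tet3* still ranked lower in Oct4+ than in Pdgfra+ nEnd (−59.5 points, adjusted p = 0.0138) and DP nEnd (−62.0 points, adjusted p = 0.0208), and by mean coverage the differences from Pdgfra+ and DP nEnd were −43.0 and −39.0 points, with adjusted p of 0.0811 and 0.127.

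The peak at the upstream *Tet3* promoter was 4306, 2857, 3438 and 3585 bp wide in Oct4+, 5997, 6224 and 5440 bp in DP and 7275, 3150 and 5471 bp in Pdgfra+ nEnd. Pdgfra+ nEnd replicate 2 fell within the Oct4+ nEnd range in bp and above it once widths were centred on each library's median. The centred width was 0.577-fold that of Pdgfra+ nEnd (log2 difference −0.79 ± 0.16 SE, limma adjusted p = 0.00884), and without centring the log2 difference of −0.51 did not pass (adjusted p = 0.376).

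The second *Tet3* promoter, at the RefSeq start shown above, lies 14.7 kb downstream within the gene. It carried no peak in any of the 4 Oct4+ nEnd libraries and a peak in all DP and Pdgfra+ nEnd libraries, at percentiles of 43.8, 53.2 and 39.4 in DP nEnd and 84.4, 64.9 and 68.6 in Pdgfra+ nEnd. The promoter is counted as marked only through DP and Pdgfra+ nEnd, so this presence is a description. Of the promoters marked in at least 1 library, 2.13% (316 of 14843) carried a peak in all 6 DP and Pdgfra+ nEnd libraries and none in the 4 of Oct4+ nEnd. Pdgfra+ nEnd libraries lay above DP nEnd libraries without overlap, and the difference between them, −27.2 ± 9.89 points, did not pass (limma over promoters, adjusted p = 0.960). The Oct4+ nEnd consensus list held a peak at the upstream promoter only. The 6 peaks at the RefSeq start also overlapped the promoter window of the noncoding gene *B230319C09Rik*.

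Of the 9 genes 7 were marked in all 10 libraries, beside 31.1% of the 11632 genes marked in at least 1. In presence, counted per gene over all its promoters, no gene passed in any pair, and those 7 could not differ. The lowest two-sided p of Fisher's exact test was 0.429, for *Tet2* in Oct4+ against Pdgfra+ nEnd. This test can give no less than 0.0286 for 4 libraries against 3 and 0.1 for 3 against 3, so DP against Pdgfra+ nEnd could not pass. Among single promoters it gave an unadjusted 0.0286 for the *Tet3* RefSeq start in both pairs with Oct4+ nEnd. The same value came for the next *Tet1* start upstream in Oct4+ against Pdgfra+ nEnd. Exact permutation tests of each gene's percentiles gave two-sided p = 0.0571 for *Tet1*, *Tet2* and *Tet3* in Oct4+ against Pdgfra+ nEnd and against DP nEnd, and for *Dnmt3a* in Oct4+ against DP nEnd, which is the smallest such a test can give for 4 libraries against 3. The share of all genes that reach this smallest value was not computed, so the number of genes at it is a description. The percentile calls of *Tet1*, *Tet2* and *Tet3* between Oct4+ and Pdgfra+ nEnd held without any 1 of the 10 libraries, among them Oct4+ nEnd replicate 3.

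**Figure D5:**
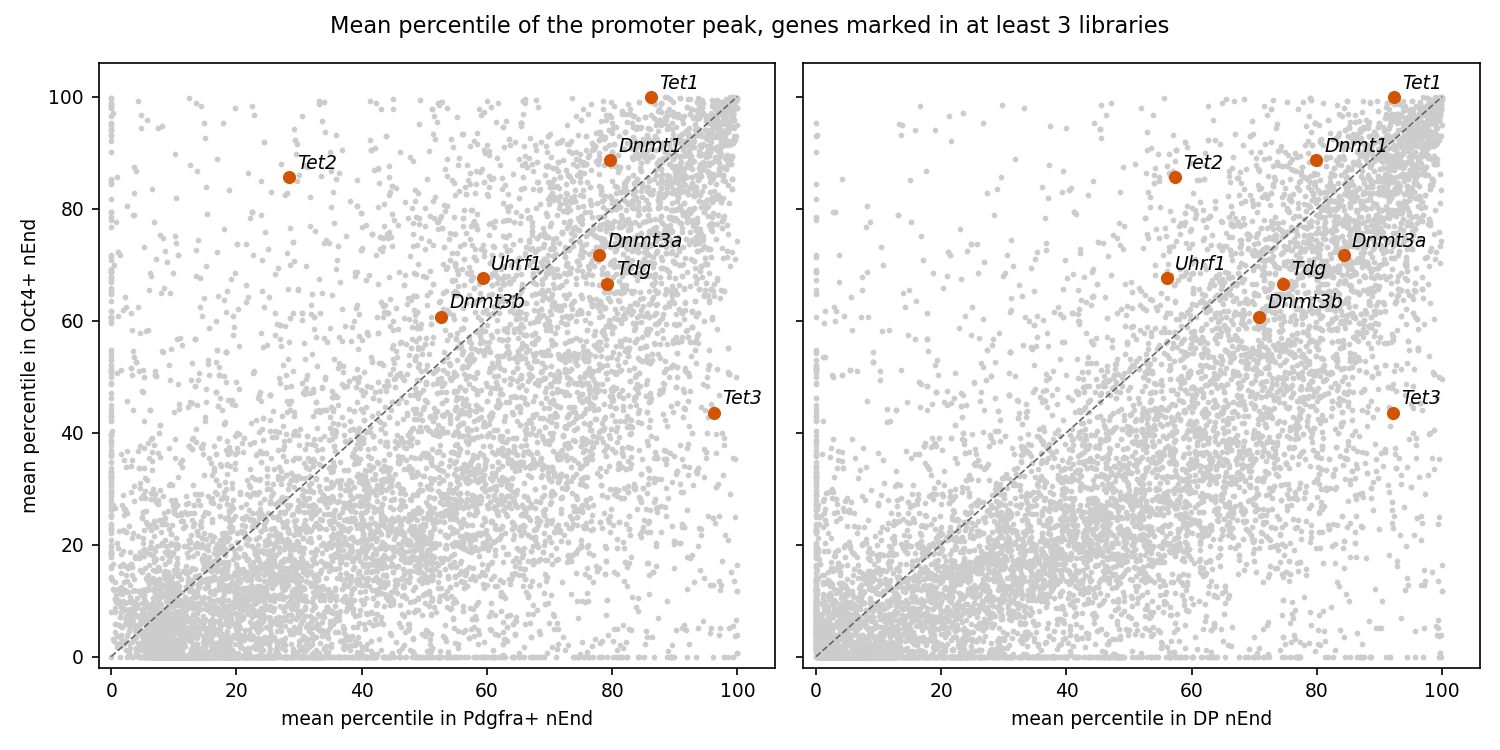
Mean percentile of the promoter peak in Oct4+ nEnd (vertical axis) against Pdgfra+ nEnd (left) and DP nEnd (right), for the 9864 genes marked in at least 3 libraries (grey) with 8 of the 9 genes in orange. On the dashed line both means are equal. *Tet1* and *Tet2* lie above it and *Tet3* far below it in both panels.

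The wider pathway was read from 40 related genes, of which 32 were tested, 15 were marked in all 10 libraries and 4 in none. Between Oct4+ and Pdgfra+ nEnd 6 ranked higher in Oct4+ nEnd and 2 lower, with a median difference of 1.77 points, beside 4.37% and 14.0% of all genes tested and their median of −10.4. Between Oct4+ and DP nEnd 3 ranked higher and 2 lower, with a median of 1.84 points, beside 1.74% and 8.23% of all genes and their median of −10.4, and between DP and Pdgfra+ nEnd 0 passed in limma.

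Among regulators of imprints and of the methylation machinery, *Zfp57*, the zinc finger protein that protects imprinted methylation, had a mean percentile of 75.1 ± 8.69 in Oct4+ (SD, n = 4), 16.8 ± 11.8 in DP and 10.2 ± 15.4 in Pdgfra+ nEnd (SD, n = 3), and was higher in Oct4+ nEnd in both pairs (limma adjusted p = 0.00210 and 0.00686). *Prdm14*, a repressor of the de novo methyltransferases in naive cells, ranged from 46.3 to 87.3 in Oct4+ nEnd and had no peak in the other 6 libraries. It entered the test only through its Oct4+ nEnd libraries, so its call, counted above, is a description. *Nsd1*, a histone H3K36 methyltransferase, ranged from 98.4 to 99.6 in Oct4+, 86.5 to 90.2 in DP and 77.7 to 81.1 in Pdgfra+ nEnd, without overlap (adjusted p = 0.0153 for Oct4+ against DP nEnd and 0.000270 against Pdgfra+ nEnd).

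*Cxxc5*, a CXXC protein that binds CpG and interacts with TET2, ranged from 94.6 to 97.6 in Oct4+, 83.0 to 89.1 in DP and 39.9 to 58.8 in Pdgfra+ nEnd, and was 43.4 ± 5.36 points higher in Oct4+ than in Pdgfra+ nEnd (SE, adjusted p = 0.000270). *Usp7*, a deubiquitinase that stabilizes UHRF1 and DNMT1, was higher by 22.6 ± 5.39 points (adjusted p = 0.0130), and *Parp1*, a DNA repair enzyme, by 55.3 ± 12.3 points (adjusted p = 0.00921). Of the 3 GADD45 stress-response genes, which are linked to demethylation, *Gadd45b* and *Gadd45g* ranked lower in Oct4+ nEnd and *Gadd45a* did not pass, with means of 95.3, 92.8 and 91.4 in Oct4+, DP and Pdgfra+ nEnd (adjusted p = 0.239 for Oct4+ against Pdgfra+ nEnd). *Gadd45b* had a mean percentile of 11.0 ± 16.8 in Oct4+, 65.9 ± 12.6 in DP and 70.2 ± 26.8 in Pdgfra+ nEnd (adjusted p = 0.0341 against DP and 0.0157 against Pdgfra+ nEnd). *Gadd45g* had no peak in the 4 Oct4+ nEnd libraries and ranged from 86.8 to 91.6 in DP nEnd and 79.4 to 95.9 in Pdgfra+ nEnd, and it likewise entered the test only through those libraries.

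The genes with percentiles most like those of *Tet1* over the 10 libraries, by Euclidean distance, were *Rbm14* with the readthrough gene *Gm21992*, which has the same values, and *Sept1*, at mean absolute differences of 1.46, 1.46 and 1.67 points. For *Tet2* they were *Ppil1*, *Lrrc8d* and *Ubxn2a*, at 3.57, 5.42 and 5.44 points. For *Tet3* they were *Arhgef17*, *Vav2* and *Cpeb2*, at 2.33, 3.65 and 3.27 points.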

How the data were processed

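H3K4me3 CUT&Tag libraries of sorted Oct4+ (4), DP (3) and Pdgfra+ (3) nEnd were used. Per the authors' methods, coverage was computed with BEDtools, SEACR (stringent mode, IgG as control) called peaks per library, and DiffBind gave consensus peaks per population. The submitters' processing notes name bcl2fastq 2.19.1, Bowtie2, SAMtools 1.12, deepTools, SEACR, bedtools 2.26.0 and mm10. The deposited peaks hold 2 signal values, the total and the highest coverage, unscaled between libraries. More deeply sequenced peaks gain total signal, so only ranks within a library, presence and width were compared. Broader peaks gain total signal too, and ranks by total signal within a library do not remove this. The deposited consensus lists give positions, and their score column was not used. Depth is unknown, so no interval for counting error was computed.

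Groups came from the sample titles. Promoters were built from 93196 TSS of 21755 protein-coding genes of GENCODE M21 (GRCm38). The percentile was 100 × (rank − 0.5) / n. limma 3.58.1 (R 4.3.3), with a variance trend, was fitted to all 10 libraries for the percentiles of 9864 genes marked in at least 3 libraries and for log2 widths of 3616 genes, with Benjamini-Hochberg adjustment per pair and a threshold of 0.05. Fits over promoters were added after seeing the data. Presence was tested by Fisher's exact test and percentiles also by exact permutation (scipy 1.17.1). The percentile fit was tested on simulated data. Tables and plots used Python 3.11.15, numpy 2.4.6, pandas 2.3.3 and matplotlib 3.10.9.

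The 9 genes and the lists were chosen with earlier results of these data known. Text names all 9 genes, related genes that passed in a pair (at most 12), and up to 3 genes of most similar percentiles for each of the 9 that passed. The study calls its replicates biological, 3 unless stated otherwise, and 4 Oct4+ nEnd libraries were used here. Which culture or sort each library came from is not given in the sources used here, and p-values measure the spread between these libraries. No 2 libraries of a population shared a peak of the same position and signal. Alternatives were the window, the overlap, equal peak numbers, the ranking value, the filter, the transcripts, the centring of widths, a replicate block and leaving out each library.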

Additional observations from a re-analysis of the deposited data

Results flagged for a closer look

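The percentile of the *Tet1* promoter peak in Oct4+ nEnd replicate 3, 99.6, stood apart from the other 3 Oct4+ nEnd libraries, with a gap of 0.917 of the range of the group by Dixon's test. Values of 16 such groups were tested, and chance sets apart about 1 in 20.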

How the results depend on the processing

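Counts below are of genes, or of the 9 genes, that passed in Oct4+ against Pdgfra+, Oct4+ against DP and DP against Pdgfra+ nEnd, in this order. By percentile the counts of all genes were 1814, 984 and 10, and of the 9 genes 3, 1 and 0. By highest coverage they were 798, 417 and 0, with 1 of the 9 genes in the first pair. By mean coverage they were 389, 236 and 0, with 0 of the 9 genes in the first and second pair. With ranks among all genes they were 2839, 1937 and 68 of 9864 tested, with 5 and 4 of the 9 genes in the first and second pair. With equal numbers of peaks they were 2034 in the second and 150 in the third pair, with 6 and 5 of the 9 genes in the first and second. With genes marked in all 10 libraries they were 415, 22 and 3, and over promoters 28 in the third pair. Leaving out each library gave 967 to 2801, 317 to 2025 and 0 to 46 genes. The first pair gave 2801 without Oct4+ nEnd replicate 1, 972 without Oct4+ nEnd replicate 4 and 967 without Pdgfra+ nEnd replicate 3. The second gave 2025 and 518 without Oct4+ nEnd replicates 1 and 4 and 319, 317 and 415 without DP nEnd replicates 1 to 3. The third gave 0 without DP nEnd replicate 1, 46 and 16 without Pdgfra+ nEnd replicates 1 and 2, 7 without Oct4+ nEnd replicate 3 and 3 to 5 without each other library. Of the 9 genes 3, 1 to 2 and 0 passed. *Tet1* was the added gene in the second pair, without Pdgfra+ nEnd replicate 1, 2 or 3.

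By width the counts were 318, 8 and 12 genes, and 2, 0 and 0 of the 9. With equal numbers of peaks they were 138, 2 and 4 genes, uncentred 115 (114 wider and 1 narrower), 2 and 4, each with 1 of the 9, *Tet1*, in the first pair. *Tet3* was not tested with equal numbers of peaks, since its peak in Oct4+ nEnd replicate 1 (rank 3761 by total signal) was not kept. Where a peak had to cover 50% of a window, 208 genes were wider and 101 narrower in the first pair, of 3413 tested. Of the 9 genes 1, *Tet3*, passed there, and *Tet1* was not tested, having no such peak in every library. With protein-coding transcripts only the second pair gave 5 genes, and with summed widths 18, with *Tet3* among them. Leaving out each library gave 135 to 387, 4 to 34 and 1 to 15 genes. The first pair gave 135 without Pdgfra+ nEnd replicate 3. The second gave 34 without Oct4+ nEnd replicate 3, 15 without Pdgfra+ nEnd replicate 2, and 4 and 5 without Oct4+ nEnd replicates 1 and 4. The third gave 1, 2 and 7 without DP nEnd replicates 1 to 3 and 7, 1 and 6 without Pdgfra+ nEnd replicates 1 to 3. Of the 9 genes 2 to 3, 0 to 1 and 0 passed. *Tet2* was added in the first pair without Pdgfra+ nEnd replicate 2, where it entered the test, and *Tet1* in the second without Oct4+ nEnd replicate 3. With equal numbers of peaks 6.67 of the 9 genes were marked on average in DP nEnd and 5.67 in Pdgfra+ nEnd, against 8 and 7.67.

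Replicate numbers were shared across populations. Same-numbered libraries correlated by −0.169 to 0.231 in their deviations from the population means, 3 of 9 pairs above 0.1, and 5 of 9 libraries correlated best with their own number, so the numbers were not taken to pair the libraries. The replicate block gave 1119, 529 and 3 genes by percentile and 210 by width in the first pair, with the same 9-gene calls, and the *Uhrf1* width difference in the first pair turned to −0.016 (log2).

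Directions of differences that did not pass turned under some alternatives, and *Tet1* turned to −16.6 by mean coverage. Against Pdgfra+ nEnd, *Dnmt1* was −0.75 by highest and −6.27 by mean coverage, *Dnmt3a* 4.13, 1.62, 4.85 and 1.13 points by highest coverage, mean coverage, equal numbers and ranks among all genes, *Uhrf1* −0.80 by highest coverage, and *Tdg* 0.147 and 0.313 with equal numbers and ranks among all genes. Against DP nEnd, *Dnmt1* was −0.67 and −5.54 by highest and mean coverage, *Dnmt3b* 6.50, 9.22 and 2.44 by mean coverage, equal numbers and ranks among all genes, *Uhrf1* −4.49 by mean coverage, and *Tdg* 9.91 and 2.57 with equal numbers and ranks among all genes. In log2 width, *Tdg* was 0.16 uncentred against Pdgfra+ nEnd and *Dnmt3a* 0.24 with equal numbers against DP nEnd. Leaving out libraries, *Dnmt3b* ranged from −17.1 to 2.56 and *Tdg* from −14.0 to 1.64 points against DP nEnd, *Tdg* from −18.7 to −3.08 points against Pdgfra+ nEnd, and against Pdgfra+ nEnd log2 widths ranged from −0.027 to 0.15 for *Dnmt3a* and from −0.093 to 0.16 for *Uhrf1*. The cause was not tested. Unscaled coverage and unknown depth limit every comparison to ranks, presence and width.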

Other observations

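A peak of 5101 bp at percentile 10.5 lay at an internal *Tet1* start (62865304 on chromosome 10) in Oct4+ nEnd replicate 1 and in no other library. The *Tet3* start farthest upstream (83459084 on chromosome 6) was reached by the peak of the neighbouring promoter in DP nEnd replicate 2 and Pdgfra+ nEnd replicate 1. The *Dnmt3a* starts between 3894824 and 3895593 on chromosome 12 had the peak of the internal promoter in their promoter window, from 1000 bp upstream, in 2 of 4 Oct4+, 3 of 3 DP and 0 of 3 Pdgfra+ nEnd libraries.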
